A study of Homo sapiens with 27 samples.

Results

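Melanosome biogenesis and transport genes were followed in a human melanoma cell line starved of amino acids, treated with an mTOR inhibitor or deprived of the transcription factors TFE3 and TFEB. The 10 genes, RAB38, RAB32, HPS1, HPS4, HPS5, DTNBP1, RAB27A, MLPH, MYO5A and TRPM1, were chosen by symbol from the 13523 genes of the deposited table, by a rule that uses no measured value but with earlier results of these data known. All 10 had a row and all 10 passed the filter on low values. Their values ran from 19.0 to 384 normalised read counts over all libraries, which is 91 to 1836 reads for a gene in a library.

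A melanosome is a lysosome-related organelle in which pigment cells make and store melanin. Its enzymes are sorted from endosomes by the small GTPases RAB38 and RAB32 and by complexes named BLOC, and the mature organelle is then passed to actin filaments at the cell edge. HPS1 and HPS4 form BLOC-3, which activates RAB32 and RAB38. HPS5 is a subunit of BLOC-2 and DTNBP1 (dysbindin) a subunit of BLOC-1, and inherited loss of HPS1, HPS4, HPS5 or DTNBP1 causes Hermansky-Pudlak syndrome, with pale skin and bleeding. RAB27A on the melanosome binds MLPH (melanophilin), which binds MYO5A (myosin Va), the motor that holds the organelle on actin. TRPM1 (melastatin) is a cation channel of melanocytes whose gene also hosts the microRNA gene MIR211. Many pigment cell genes are targets of MITF, a transcription factor of the same family as TFE3 and TFEB, and this family binds E-box sequences such as CACGTG and CATGTG.

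The cells were 501mel, an established melanoma line high in MITF. Per the labels they were grown in DMEM with 10% FBS, whereas the study's methods give RPMI medium for lines of this kind. Unedited (WT) cells were left untreated (WT control), starved for 12 h in HBSS, a glucose saline that lacks amino acids (WT HBSS), or given 250 nM Torin, which blocks the kinase mTOR, over 12 h (WT Torin). TFE3 KO, TFEB KO and TFE3 TFEB double knockout (DKO) cells had 12 h without drug (control) or with Torin. No time is given for WT control, so it may have been handled differently from the knockout controls. This limits comparisons of a knockout with WT without drug, and of Torin responses between genotypes. Per the study's methods each knockout line came from Cas9 editing and is 1 clone, so clone and genotype cannot be told apart in any comparison with WT. The labels give 3 libraries for each of 9 groups. WT HBSS replicate 3 and WT Torin replicate 1, as the columns were labelled, were identical in all 13523 genes and entered neither group, which left 2 libraries each for WT HBSS and WT Torin and 25 in all. The duplicated column held RAB27A at 397 and MITF at 1500. For these genes WT HBSS had 351 and 384, and 1392 and 1454. WT Torin had 112 and 91.3, and 735 and 732. Settings that keep the column as WT Torin thus put values near those of WT HBSS into that group for these genes. Nothing states that replicates were separate cultures, so p-values measure the spread between these libraries only.

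The promoter windows below are shown because they are the places near the start sites of these genes where an E-box of this family's kind was found. Windows of 250 bases before to 50 bases after annotated starts (RefSeq, hg38) were searched on both strands. The table of windows held 18 for 8 of the 10 genes. RAB38 and HPS1 had no entry. The 8-base palindrome TCACGTGA was in 0.980% of all 35116 windows and, among these genes, in that of HPS5. CACGTG, which TCACGTGA contains, was in 7.26% of windows and here in those of HPS5 and MLPH. CATGTG was in 11.1% of windows and here in both windows of TRPM1 and in 2 windows of HPS4. TCATGTGA, in 0.9995% of windows, was in none of the 18. Capitals mark the match, positions count from the annotated start, and a match is not evidence of binding.
HPS5, minus strand, chr11:18322223-18322282, match at -116, outside annotated exons: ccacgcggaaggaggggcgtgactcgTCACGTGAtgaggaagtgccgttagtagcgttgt
MLPH, plus strand, chr2:237487189-237487248, match at -35, within the gene and outside annotated exons: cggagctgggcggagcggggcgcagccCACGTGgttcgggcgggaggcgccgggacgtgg
TRPM1, minus strand, chr15:31161161-31161220, match on the other strand at -8, just upstream of the gene: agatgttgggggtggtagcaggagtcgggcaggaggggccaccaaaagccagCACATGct
TRPM1, minus strand, chr15:31101749-31101808, match on the other strand at -56, before an inner start, within the gene and outside annotated exons: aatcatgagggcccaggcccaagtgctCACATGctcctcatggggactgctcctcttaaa
The match of HPS4 lies in an annotated untranslated exon and is not printed.

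Values are read counts normalised by the authors to the CPM scale, from 3′ end libraries, in which a read stands for the 3′ end of a transcript. Levels are therefore not divided by gene length. Libraries held 4147050 to 6526392 reads, and the upper limit for a gene with no read, taken as 3 reads, is 0.460 to 0.711 (counting error only). All 8 melanocytic markers (MITF, SOX10, PMEL, MLANA, TYR, TYRP1, DCT and S100B) were above 3 reads in every library. Of 11 markers of epithelial, immune, fibroblast and endothelial cells, 9 had no row, COL1A1 lay at 0 to 5.06 and CD68 at 29.5 to 74.2. The sum of the other cells' markers given below is therefore that of CD68 and COL1A1, mostly CD68. By itself it does not show that other cell types were present. TFE3 was 23.8 to 24.3 in WT control, 5.06 to 7.59 in TFE3 KO control and 5.93 to 6.86 in DKO control, lower than WT but not at 0. TFEB was low outside WT HBSS, at 2.34 to 3.96 in WT control, 0.750 to 1.66 in TFEB KO control and 0.177 to 1.56 in TFE3 KO control, so its level does not tell TFEB KO from TFE3 KO. A gene passed a comparison when limma's p, adjusted by Benjamini-Hochberg over 13052 tested genes, was under 0.05. The log2 fold changes were fitted by limma to log2(value + 1). In these bulk samples, fewer cells of a type and less RNA per cell cannot be told apart.

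The first comparison asked how the genes responded to HBSS. The saline replaced the whole medium, so loss of amino acids cannot be told apart from loss of other components of the medium. In WT cells 6 of the 10 genes rose in HBSS (RAB38, RAB32, HPS4, RAB27A, MLPH and MYO5A) and DTNBP1 fell. HPS1, HPS5 and TRPM1 did not pass. Of all tested genes, 23.6% rose and 24.7% fell. The median log2 fold change was 0.79 over the members and -0.026 over all genes. The melanocytic marker sum moved with HBSS as well, at 14332 to 14482 in WT HBSS and 6243 to 6433 in WT control. The sum of the other cells' markers (CD68 and COL1A1) was 52.5 to 63.8 and 29.9 to 44.2 in the same groups. The part of either sum in these results was not tested. All 7 calls were kept under each of the 15 alternatives run, the removal of each library included.

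Torin was compared with control within each genotype. In WT, 6 of the 10 genes rose (RAB32, HPS1, HPS4, MLPH, MYO5A and TRPM1) and none fell, against 20.5% and 23.4% of all genes. In TFE3 KO, 8 rose and DTNBP1 fell, with backgrounds of 25.4% and 26%, and RAB27A alone did not pass. In TFEB KO, 5 rose (RAB32, HPS4, MLPH, MYO5A and TRPM1) and DTNBP1 fell, with backgrounds of 17.4% and 21%. In DKO, 3 rose (RAB32, HPS4 and MLPH) and RAB27A fell, with backgrounds of 25.4% and 26.2%. Median log2 fold changes over the members were 0.39 in WT, 0.50 in TFE3 KO, 0.46 in TFEB KO and 0.22 in DKO, where the medians of all genes were 0.0013, 0.023, 0.0032 and 0.021. The marker sum of the melanocytic list was 8076 to 8312 in WT Torin, above that of WT control, and that of the other cells was 54.8 to 64.0. The melanocytic sum went from 6208 to 6472 without drug to 8808 to 9275 with Torin in TFE3 KO, from 5929 to 6281 to 7296 to 7395 in TFEB KO and from 5193 to 5653 to 7128 to 7280 in DKO. The other cells' sum (CD68 and COL1A1) was 46.0 to 48.5 without drug and 55.4 to 72.1 with Torin in TFE3 KO. In TFEB KO it was 37.5 to 55.5 and 59.5 to 62.1, and in DKO 48.0 to 55.4 and 70.3 to 76.7. Both sums were thus higher with Torin in every genotype, without overlap. Their part in the Torin results was not tested.

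RAB32, HPS4 and MLPH passed with Torin in all 4 genotypes. Of all 13052 genes, 5724 passed in WT, 6705 in TFE3 KO, 5005 in TFEB KO and 6733 in DKO. How many of them passed in all 4 was not counted. A difference in the Torin response between a knockout and WT was tested by interaction terms, and by limma 0 of the 10 genes passed in any knockout. Without adjustment, RAB32 and HPS5 had p under 0.05 in TFE3 KO, MLPH and DTNBP1 in TFEB KO, and RAB27A and TRPM1 in DKO, that is 2 of 10 each, where 10.7%, 13.6% and 9.82% of all genes did. edgeR and DESeq2 on the recovered reads also passed 0. Of all genes, limma's interaction passed 0.49% as higher and 0.575% as lower in TFE3 KO. In TFEB KO these shares were 0.812% and 0.345%, and in DKO 0.314% and 0.192%. The list of passing genes thus differed by genotype, but no member was shown to respond differently from WT.

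**Figure D1:**
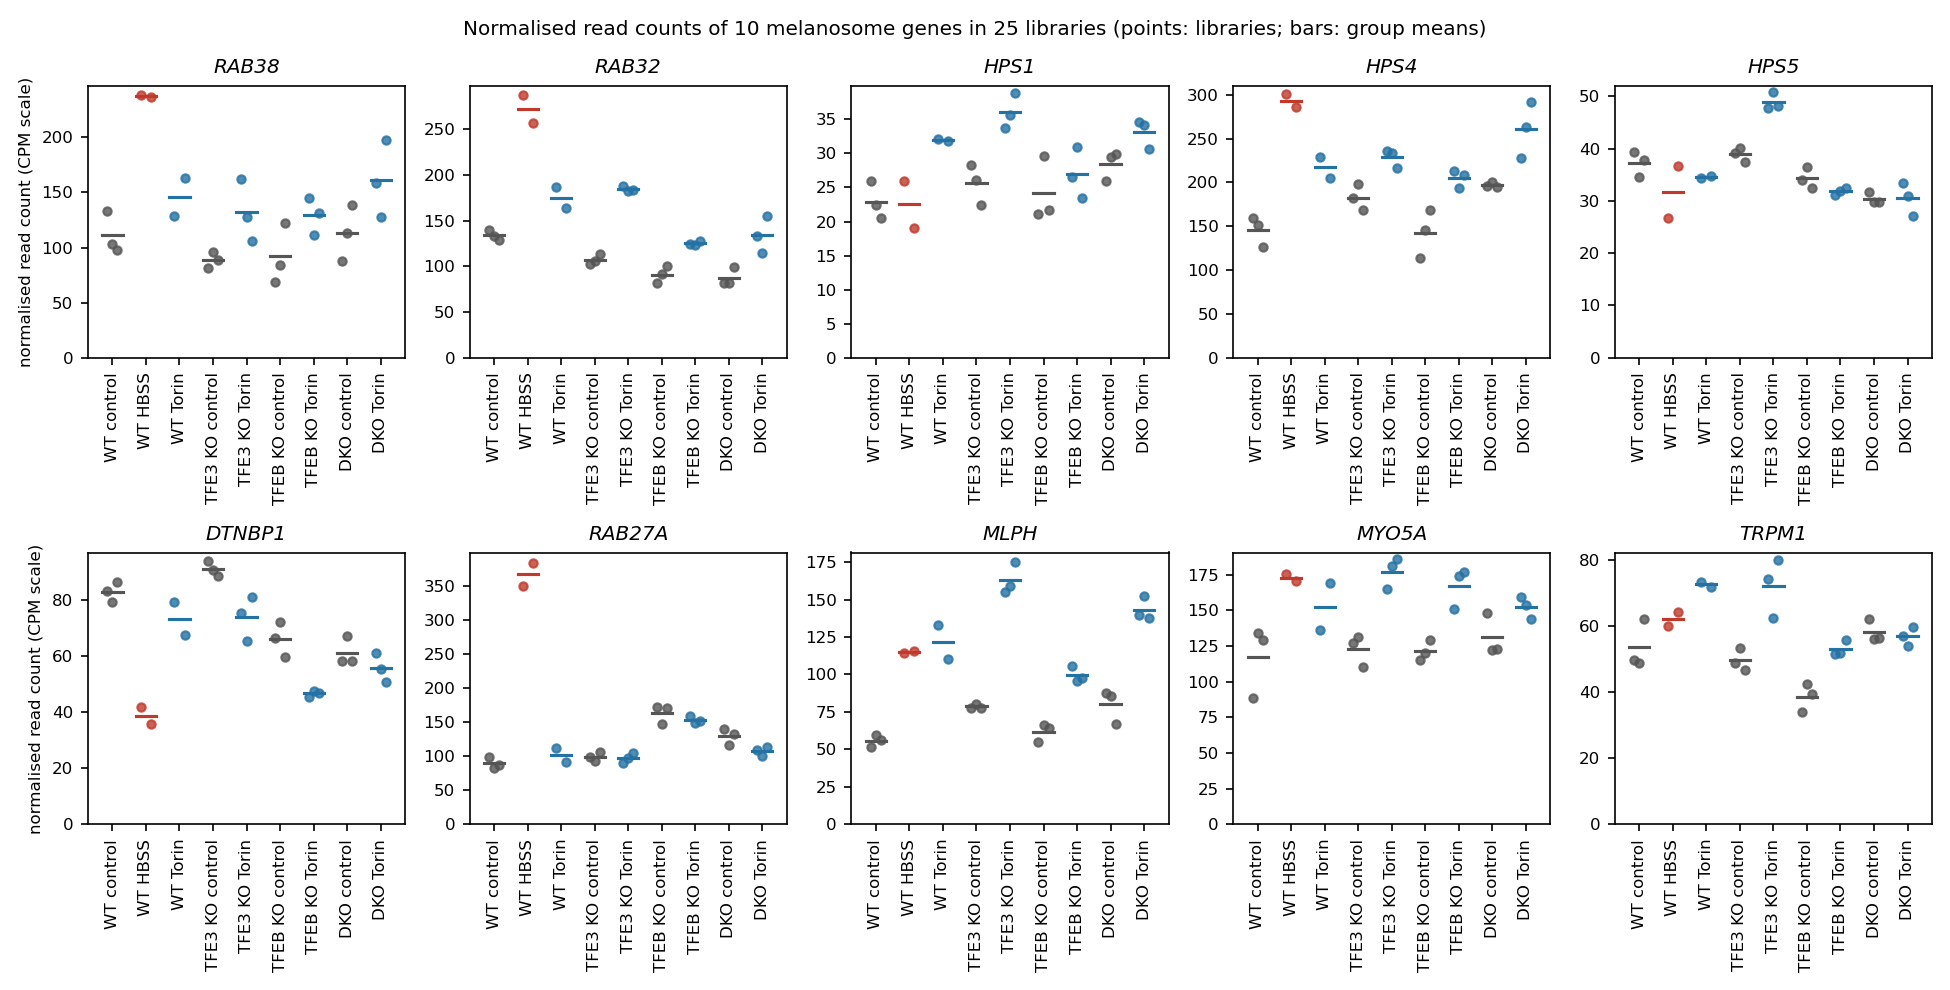
Normalised read counts (CPM scale, y axis from 0) of each of the 10 genes in the 25 libraries, with 9 groups along the x axis; points are libraries and bars are group means, grey for control, red for HBSS and blue for Torin. RAB27A reaches 351 and 384 in WT HBSS and is at most 172 elsewhere, and DTNBP1 is lowest in WT HBSS, at 41.7 and 35.8.

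RAB38 and RAB32, the GTPases that route pigment enzymes such as TYRP1, both rose in HBSS. RAB38 (chr11:88113251-88175443, minus strand) was at 134, 104 and 97.4 in WT control and 238 and 237 in WT HBSS. Both starved libraries lay above all 3 controls (log2 fold change 1.10, SE 0.25, adjusted p = 0.00142). RAB32 (chr6:146543833-146554953, plus strand) was at 139, 133 and 129 and 287 and 257 in the same groups. These did not overlap either (log2 fold change 1.01, SE 0.10, adjusted p = 9.66e-12).

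With Torin, RAB32 rose in all 4 genotypes. In WT it went to 186 and 164 (log2 fold change 0.38, SE 0.10, adjusted p = 0.00191), and the call was lost without WT Torin replicate 2 (log2 fold change 0.29, adjusted p = 0.0771). In TFE3 KO it was 102, 106 and 113 without drug and 188, 183 and 183 with Torin (log2 fold change 0.78, SE 0.091, adjusted p = 4.79e-10). The treated libraries were well apart from their controls there, as they were in both other knockouts. In TFEB KO the values were 81.7, 91.5 and 99.8 without drug and 124, 123 and 127 with Torin (log2 fold change 0.46, SE 0.091, adjusted p = 6.56e-05). In DKO they were 81.5, 81.9 and 98.8 and 133, 115 and 154 (log2 fold change 0.61, SE 0.091, adjusted p = 2.14e-07).

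RAB38 was the most variable member, with a median within-group coefficient of variation of 17.4%, against 3.81% to 11.4% for the others. In WT Torin it was 128 and 163, which overlaps the control libraries (log2 fold change 0.39, SE 0.25, adjusted p = 0.227), and it passed only when the groups compared were fitted alone (adjusted p = 0.0178). The TFE3 KO change from 81.2, 95.7 and 88.4 to 162, 128 and 106 passed (log2 fold change 0.56, SE 0.22, adjusted p = 0.0466), although leaving out any 1 of TFE3 KO control replicate 1, TFE3 KO control replicate 2, TFE3 KO control replicate 3, TFE3 KO Torin replicate 1 and TFE3 KO Torin replicate 2 (log2 fold change 0.40 to 0.61, adjusted p = 0.0602 to 0.190) ended the call. In TFEB KO, RAB38 was 69.2, 84.3 and 123 without drug and 145, 112 and 131 with Torin (log2 fold change 0.52, SE 0.22, adjusted p = 0.0788), which overlapped and passed only without TFEB KO control replicate 3 (log2 fold change 0.74, adjusted p = 0.0158). In DKO it was 87.4, 113 and 139 and 158, 127 and 197 (log2 fold change 0.51, SE 0.22, adjusted p = 0.0672), and passed without any 1 of DKO control replicate 3 and DKO Torin replicate 2 (log2 fold change 0.66 to 0.67, adjusted p = 0.0325 to 0.0329) and in edgeR and DESeq2 (adjusted p = 0.0429 and 0.0333). The estimates in the 4 genotypes lay between 0.39 and 0.56.

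Against WT, RAB32 was lower in every knockout without drug, while RAB38 passed in none. The differences for RAB32 were -0.32 (SE 0.091, adjusted p = 0.0152) in TFE3 KO, -0.56 (SE 0.091, adjusted p = 1.90e-05) in TFEB KO and -0.61 (SE 0.091, adjusted p = 1.47e-06) in DKO. No knockout control library of RAB32 reached the lowest WT control library. Without drug the melanocytic marker sum was 5193 to 5653 in DKO, under the 6243 to 6433 of WT, 6208 to 6472 in TFE3 KO and 5929 to 6281 in TFEB KO. The sum of the other cells' markers (CD68 and COL1A1) was 46.0 to 48.5 in TFE3 KO and 48.0 to 55.4 in DKO, above the 29.9 to 44.2 of WT. In TFEB KO this sum was 37.5 to 55.5. The part of either in the genotype comparisons of the 10 genes was not tested. The TFE3 KO call was lost without any 1 of WT control replicate 1, TFE3 KO control replicate 1 and TFE3 KO control replicate 2 (log2 fold change -0.31 to -0.29, adjusted p = 0.0591 to 0.0808). TFE3 KO exceeded TFEB KO by 0.23 (SE 0.091, adjusted p = 0.0453), lost without any 1 of TFEB KO control replicate 1, TFEB KO control replicate 2, TFE3 KO control replicate 1, TFE3 KO control replicate 2 and TFE3 KO control replicate 3 (log2 fold change 0.16 to 0.27, adjusted p = 0.0516 to 0.252) and in edgeR and DESeq2 (adjusted p = 0.0539 and 0.0680). Among treated cells, RAB32 was lower than WT in TFEB KO, with a log2 difference of -0.48 (SE 0.10, adjusted p = 5.98e-04), and in DKO, with -0.39 (SE 0.10, adjusted p = 0.00723), the latter lost without any 1 of WT Torin replicate 2 and DKO Torin replicate 2 (log2 fold change -0.30 to -0.28, adjusted p = 0.0909 to 0.175). Treated TFE3 KO did not pass (0.08, 95% interval -0.12 to 0.28). For RAB38 the 95% intervals of the untreated differences were equally wide, at -0.79 to 0.15 in TFE3 KO, -0.77 to 0.17 in TFEB KO and -0.46 to 0.48 in DKO, so a moderate difference was not detectable with this spread.

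HPS1 and HPS4, the partners in BLOC-3, differed in what moved them. HPS4 (chr22:26443107-26483931, minus strand) was at 159.7, 151 and 127 in WT control, 301 and 286 in WT HBSS and 229 and 205 in WT Torin. It rose with both treatments, with no overlap with control (log2 fold change 1.01, SE 0.11, adjusted p = 8.14e-10 for HBSS, and log2 fold change 0.58, SE 0.11, adjusted p = 5.19e-05 for Torin). HPS1 (chr10:98410939-98446963, minus strand) was at 26.0, 22.4 and 20.5, 26.0 and 19.0 and 32.1 and 31.8 in the same groups. In HBSS its libraries lay at both ends of the control range (log2 fold change -0.035, SE 0.16, adjusted p = 0.875), and in Torin above it (log2 fold change 0.47, SE 0.16, adjusted p = 0.0131). The latter call was lost without any 1 of WT control replicate 3, WT Torin replicate 2 and WT Torin replicate 3 (log2 fold change 0.39 to 0.47, adjusted p = 0.0615 to 0.0691), and with the duplicated column kept as WT Torin or under both labels (log2 fold change 0.29 in each, adjusted p = 0.158 to 0.167).

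In the knockouts, HPS4 rose with Torin each time. It went from 182, 198 and 169 to 236, 234 and 217 in TFE3 KO (log2 fold change 0.33, SE 0.099, adjusted p = 0.00574) and from 114, 145 and 168 to 213, 194 and 209 in TFEB KO (log2 fold change 0.54, SE 0.099, adjusted p = 3.33e-05). In DKO it went from 195, 201 and 195 to 227, 263 and 292 (log2 fold change 0.40, SE 0.099, adjusted p = 9.94e-04), and in all 3 knockouts treated and untreated libraries were separate. HPS1 rose in TFE3 KO, from 28.3, 26.1 and 22.5 to 33.7, 35.6 and 38.9 (log2 fold change 0.48, SE 0.14, adjusted p = 0.00331). In TFEB KO (21.2 to 29.6 against 23.4 to 30.9, adjusted p = 0.388) and in DKO (26.0 to 29.9 against 30.7 to 34.6, adjusted p = 0.201) it did not pass.

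The 3′ ends of both BLOC-3 genes lie inside other genes of the table, and whether counting used strand was not stated. The end of HPS1 lies in PYROXD2 on the same strand, which was at 0.986, 1.39 and 1.56 in WT control and 5.63 and 4.98 in WT Torin, and rose with Torin in all 4 genotypes (log2 fold change 1.45 in WT, 1.21 in TFE3 KO, 1.20 in TFEB KO and 1.73 in DKO; adjusted p = 5.10e-04, 8.30e-04, 0.00147 and 5.94e-06). The end of HPS4 lies in ASPHD2 on the other strand, which was at 0.209 to 8.25 over all libraries and at 0.230 and 0.209 in WT HBSS, where HPS4 was at its highest. Reads shared with PYROXD2 or ASPHD2 cannot be told apart here.

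Against WT without drug, HPS4 was higher in TFE3 KO by 0.33 (SE 0.099, adjusted p = 0.0292) and in DKO by 0.44 (SE 0.099, adjusted p = 0.00177), and not in TFEB KO (-0.045, 95% interval -0.25 to 0.16). The TFE3 KO call was lost without any 1 of WT control replicate 3, TFE3 KO control replicate 1 and TFE3 KO control replicate 2 (log2 fold change 0.23 to 0.33, adjusted p = 0.0766 to 0.204). HPS4 was also higher in TFE3 KO than in TFEB KO, by 0.37 (SE 0.099, adjusted p = 0.00386), which was lost without TFEB KO control replicate 1 (log2 fold change 0.22, adjusted p = 0.0855). With Torin no knockout passed for HPS4, and DKO passed only without DKO Torin replicate 1 (log2 fold change 0.35, adjusted p = 0.0447) or when only the groups compared were fitted (adjusted p = 0.0308). HPS1 passed in no comparison between genotypes, with estimates without drug of 0.15 in TFE3 KO, 0.063 in TFEB KO and 0.30 in DKO.

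HPS5, of BLOC-2, and DTNBP1, of BLOC-1, did not share the rise of the GTPases. DTNBP1 (chr6:15522807-15663058, minus strand) was at 83.2, 79.2 and 86.3 in WT control and 41.7 and 35.8 in WT HBSS. It was the member that fell in HBSS, and its starved libraries lay far under every control (log2 fold change -1.08, SE 0.11, adjusted p = 3.47e-11). In WT Torin it was 79.2 and 67.3 (log2 fold change -0.18, SE 0.11, adjusted p = 0.203), with the upper library at the lowest control. With the duplicated column kept as WT Torin or under both labels, the DTNBP1 value was -0.42 and passed (adjusted p = 0.0226 and 0.0211). With Torin it fell in TFEB KO, from 66.5, 72.2 and 59.5 to 45.5, 47.6 and 46.8 (log2 fold change -0.49, SE 0.10, adjusted p = 1.20e-04). It also fell in TFE3 KO, from 94.0, 90.6 and 88.6 to 75.5, 65.2 and 80.9 (log2 fold change -0.30, SE 0.10, adjusted p = 0.0107), a call lost without TFE3 KO Torin replicate 2 (log2 fold change -0.22, adjusted p = 0.103). In DKO, 58.3, 67.1 and 58.1 and 61.1, 55.2 and 50.6 overlapped (log2 fold change -0.14, SE 0.10, adjusted p = 0.267).

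DTNBP1 was lower than WT in the TFEB KO and DKO lines. TFEB itself had a mean of 1.11 in TFEB KO control and 0.681 in TFE3 KO control. With 1 clone per genotype the DTNBP1 pattern cannot be assigned to a gene. Without drug the difference was -0.33 (SE 0.10, adjusted p = 0.0225) in TFEB KO and -0.43 (SE 0.10, adjusted p = 0.00186) in DKO, and 0.13 (SE 0.10, adjusted p = 0.479) in TFE3 KO, which did not pass. TFE3 KO exceeded TFEB KO by 0.46 (SE 0.10, adjusted p = 3.98e-04). The TFEB KO call against WT was lost without any 1 of WT control replicate 1, WT control replicate 3, TFEB KO control replicate 1 and TFEB KO control replicate 3 (log2 fold change -0.33 to -0.25, adjusted p = 0.0523 to 0.127). With Torin DTNBP1 was again lower in TFEB KO, with a log2 difference of -0.64 (SE 0.11, adjusted p = 5.65e-05), and in DKO, with -0.39 (SE 0.11, adjusted p = 0.0156), and TFE3 KO did not pass (0.011, 95% interval -0.22 to 0.24). The DKO call was lost without any 1 of WT Torin replicate 2 and DKO Torin replicate 3 (log2 fold change -0.33 to -0.28, adjusted p = 0.0885 to 0.270). Both were lost with the duplicated column kept as WT Torin (log2 fold change -0.40 in TFEB KO and -0.15 in DKO).

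HPS5 (chr11:18278668-18322198, minus strand) stayed within a narrow band. Its values were 39.3, 34.6 and 37.9 in WT control, 26.7 and 36.6 in WT HBSS and 34.5 and 34.8 in WT Torin. Neither treatment passed in WT (-0.24, 95% interval -0.50 to 0.018, and -0.10, 95% interval -0.36 to 0.16), although HBSS passed without WT HBSS replicate 2 (log2 fold change -0.46, adjusted p = 0.0156) and with the duplicated column kept as WT HBSS (adjusted p = 0.0433). The exception was TFE3 KO with Torin, where HPS5 went from 38.9 ± 1.33 (SD, n = 3) to 47.7, 50.8 and 48.1 (log2 fold change 0.32, SE 0.12, adjusted p = 0.0183). This group lay above all other libraries, and it exceeded WT Torin by 0.48 (SE 0.13, adjusted p = 0.0110). The rise was lost without any 1 of TFE3 KO control replicate 3 and TFE3 KO Torin replicate 2 (log2 fold change 0.29 to 0.29, adjusted p = 0.0618 to 0.0641), and the difference from WT without any 1 of WT Torin replicate 2 and WT Torin replicate 3 (log2 fold change 0.48 to 0.49, adjusted p = 0.0740 to 0.0881). In TFEB KO it was 32.5 to 36.5 without drug and 31.2 to 32.4 with Torin, and in DKO 29.7 to 31.8 and 27.2 to 33.4.

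**Figure D2:**
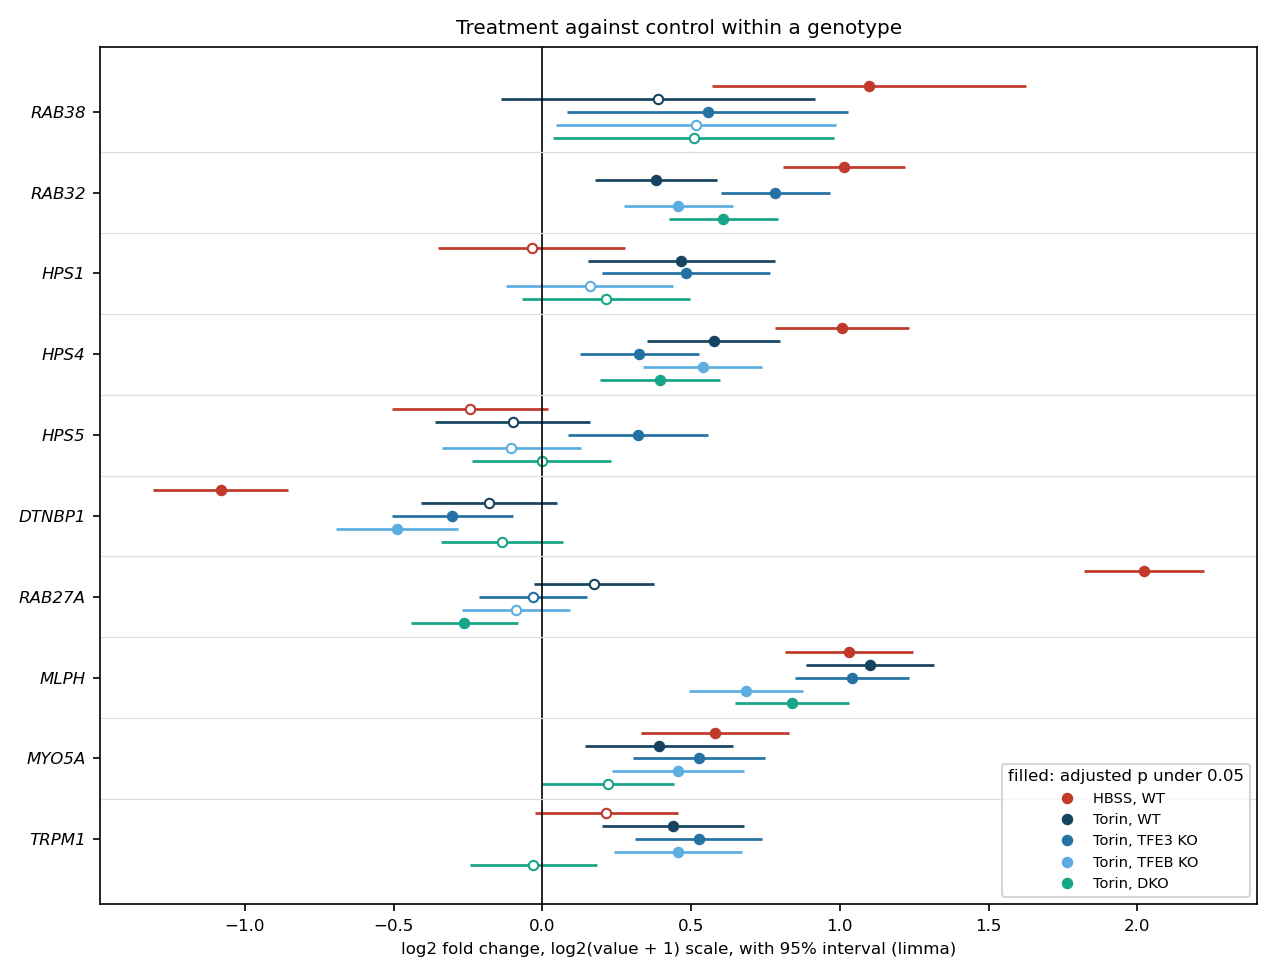
Log2 fold change with 95% interval (x axis, limma on log2(value + 1)) for each gene (y axis) in HBSS against control in WT and in Torin against control in 4 genotypes; filled points have an adjusted p under 0.05. RAB27A stands at 2.02 in HBSS, with Torin estimates between -0.26 and 0.17, while MLPH lies between 0.68 and 1.10 in all 5 comparisons.

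RAB27A, MLPH and MYO5A, which together hold melanosomes on actin, all rose in HBSS, and RAB27A rose the most of the 10 genes. RAB27A (chr15:55202966-55319113, minus strand) was at 98.6, 83.3 and 87.4 in WT control and 351 and 384 in WT HBSS, a ratio of means of 4.09. No library of another group came near the starved ones (log2 fold change 2.02, SE 0.10, adjusted p = 7.19e-22). MLPH (chr2:237485428-237555322, plus strand) was at 51.4, 59.8 and 56.4 and 114 and 116 in these groups, again without overlap (log2 fold change 1.03, SE 0.11, adjusted p = 2.47e-11). MYO5A (chr15:52307281-52529132, minus strand) was at 88.7, 134 and 129 and 175 and 170.4 (log2 fold change 0.58, SE 0.12, adjusted p = 1.53e-04), with the lowest control, replicate 1, well under the other two.

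Torin separated these partners. RAB27A in WT Torin was 112 and 91.3, which overlaps control (log2 fold change 0.17, SE 0.10, adjusted p = 0.159), and it passed only without WT Torin replicate 3 (log2 fold change 0.32, adjusted p = 0.0392) or with the duplicated column in both groups (log2 fold change 0.83, adjusted p = 0.0446). MLPH in WT Torin was 133 and 110.0 and rose (log2 fold change 1.10, SE 0.11, adjusted p = 6.59e-12). MYO5A in WT Torin was 136 and 169 (log2 fold change 0.39, SE 0.12, adjusted p = 0.00883). These MYO5A values were above every control, but the call was lost without any 1 of WT control replicate 1 and WT Torin replicate 3 (log2 fold change 0.21 to 0.24, adjusted p = 0.122 to 0.224) and when only the groups compared were fitted (adjusted p = 0.0738).

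In the knockouts MLPH rose with Torin each time. It went from 77.9, 80.5 and 77.5 to 155, 159 and 175 in TFE3 KO (log2 fold change 1.04, SE 0.095, adjusted p = 6.02e-13), its highest group. From 55.1, 66.0 and 64.3 it went to 106, 95.6 and 97.5 in TFEB KO (log2 fold change 0.68, SE 0.095, adjusted p = 1.07e-07). From 87.6, 85.4 and 67.0 it went to 139, 152 and 138 in DKO (log2 fold change 0.84, SE 0.095, adjusted p = 3.15e-10). Treated and untreated libraries were separate in all of them, and the TFEB KO response minus that of WT was -0.42 (95% interval -0.71 to -0.13, adjusted p = 0.145), which did not pass.

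MYO5A also rose with Torin in TFE3 KO, from 127, 131 and 110.2 to 165, 181 and 186 (log2 fold change 0.53, SE 0.11, adjusted p = 1.20e-04), and in TFEB KO, from 115, 120.1 and 129 to 151, 174 and 177 (log2 fold change 0.46, SE 0.11, adjusted p = 0.00103). In DKO it was 148, 122 and 123 and 159.5, 154 and 144 (log2 fold change 0.22, SE 0.11, adjusted p = 0.0884). These overlapped, and the comparison passed without DKO control replicate 1 (log2 fold change 0.31, adjusted p = 0.0245), with rescaling by median of ratios (adjusted p = 0.0432), with only the groups compared (0.0499) and in edgeR (0.0355). RAB27A was 98.9, 92.8 and 106 and 89.7, 97.1 and 104 in TFE3 KO and 172, 147 and 171 and 159, 149 and 152 in TFEB KO, with 95% intervals of -0.21 to 0.15 and -0.27 to 0.092 for the Torin effect. In DKO it fell from 139, 116 and 133 to 109.5, 101 and 113 (log2 fold change -0.26, SE 0.09, adjusted p = 0.0131), which was lost without any 1 of DKO control replicate 1 and DKO Torin replicate 2 (log2 fold change -0.21 to -0.21, adjusted p = 0.0783 to 0.0797). The DKO response of RAB27A minus that of WT was -0.44 (95% interval -0.71 to -0.17, adjusted p = 0.144), which did not pass.

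Between genotypes without drug, RAB27A was raised in the TFEB KO and DKO lines, and MLPH in the TFE3 KO and DKO lines. RAB27A exceeded WT by 0.86 (SE 0.09, adjusted p = 9.47e-10) in TFEB KO and 0.52 (SE 0.09, adjusted p = 2.37e-05) in DKO, with all libraries of both above every WT control. In TFE3 KO it did not pass (0.14, 95% interval -0.038 to 0.32), and TFE3 KO was under TFEB KO, with a log2 difference of -0.72 (SE 0.09, adjusted p = 1.63e-08). MLPH exceeded WT by 0.49 (SE 0.095, adjusted p = 2.63e-04) in TFE3 KO and 0.50 (SE 0.095, adjusted p = 1.29e-04) in DKO. In TFEB KO the MLPH difference was 0.14 (95% interval -0.051 to 0.33), and TFE3 KO exceeded TFEB KO by 0.35 (SE 0.095, adjusted p = 0.00432), lost without TFEB KO control replicate 1 (log2 fold change 0.27, adjusted p = 0.0526). With 1 clone per genotype these patterns cannot be assigned to a gene. MYO5A passed in no comparison between genotypes, and its estimates without drug were 0.089 for TFE3 KO, 0.073 for TFEB KO and 0.18 for DKO.

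With Torin, RAB27A was still higher in TFEB KO than in WT, by 0.60 (SE 0.10, adjusted p = 2.36e-05), and not in DKO (0.088, 95% interval -0.11 to 0.29). With the duplicated column kept as WT Torin, the TFEB KO difference was -0.058 (adjusted p = 0.931). In that column RAB27A was at 397, nearer to the 351 and 384 of WT HBSS than to the 112 and 91.3 of WT Torin. MLPH was higher than WT in treated TFE3 KO, by 0.43 (SE 0.11, adjusted p = 0.00583), lost without WT Torin replicate 3 (log2 fold change 0.29, adjusted p = 0.224). In treated DKO it did not pass (0.24, adjusted p = 0.141). In treated TFEB KO, MLPH did not pass (-0.28, adjusted p = 0.0637) except without WT Torin replicate 3 (log2 fold change -0.41, adjusted p = 0.0414) or with only the groups compared (adjusted p = 0.0381).

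TRPM1 (chr15:31001065-31161160, minus strand), the channel gene, rose with Torin in WT and both single knockouts and did not pass in HBSS. It was at 49.8, 48.9 and 62.1 in WT control, 59.8 and 64.3 in WT HBSS and 73.4 and 71.8 in WT Torin. The Torin libraries lay above all controls (log2 fold change 0.44, SE 0.12, adjusted p = 0.00228), and the starved ones overlapped them (log2 fold change 0.22, SE 0.12, adjusted p = 0.135), passing only without WT control replicate 3 (log2 fold change 0.32, adjusted p = 0.0332). It rose from 48.9, 53.2 and 46.8 to 74.2, 62.3 and 79.9 in TFE3 KO (log2 fold change 0.53, SE 0.11, adjusted p = 4.96e-05) and from 33.9, 42.4 and 39.3 to 51.6, 51.7 and 55.8 in TFEB KO (log2 fold change 0.46, SE 0.11, adjusted p = 5.74e-04). In DKO it was 62.2, 56.0 and 56.3 and 57.1, 54.1 and 59.6 (log2 fold change -0.03, SE 0.11, adjusted p = 0.833). The DKO response minus that of WT was -0.47 (95% interval -0.79 to -0.15, adjusted p = 0.218), which did not pass.

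TFEB KO control had the lowest mean of TRPM1 among the 9 groups. It was under WT control, with a log2 difference of -0.46 (SE 0.11, adjusted p = 0.00186), and under TFE3 KO, which exceeded it by 0.36 (SE 0.11, adjusted p = 0.00766), a call lost without any 1 of TFEB KO control replicate 1 and TFE3 KO control replicate 2 (log2 fold change 0.27 to 0.31, adjusted p = 0.0533 to 0.0768). With Torin TFEB KO was under WT, with a difference of -0.45 (SE 0.12, adjusted p = 0.00620), lost without WT Torin replicate 2 (log2 fold change -0.43, adjusted p = 0.0602). DKO did not pass without drug (0.12, 95% interval -0.092 to 0.34) and was lower with Torin, at -0.35 (SE 0.12, adjusted p = 0.0466). That last call was lost without any 1 of WT Torin replicate 2, WT Torin replicate 3, DKO Torin replicate 1, DKO Torin replicate 2 and DKO Torin replicate 3 (log2 fold change -0.38 to -0.31, adjusted p = 0.0604 to 0.202) and with the replicate number as a block (log2 fold change -0.33, adjusted p = 0.0628). With the duplicated column kept as WT Torin or under both labels, both TRPM1 calls with Torin were lost (adjusted p = 0.0601 and 0.0547 in TFEB KO, and 0.147 and 0.139 in DKO). The 3′ ends of TRPM1 and RAB38 lie under long noncoding RNA genes of the other strand that have no row in the table.

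**Figure D3:**
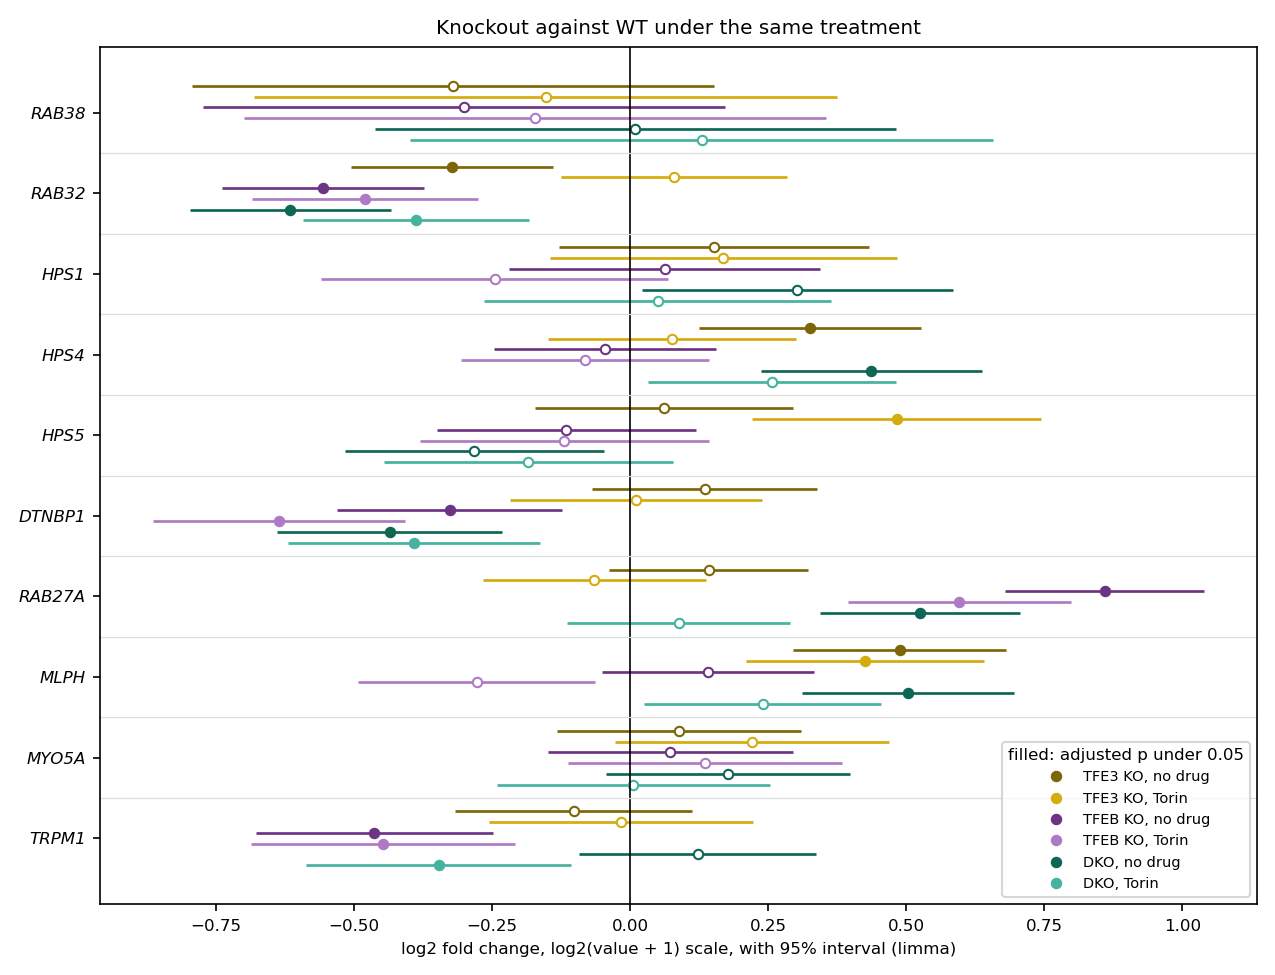
Log2 fold change with 95% interval (x axis, limma on log2(value + 1)) for each gene (y axis), TFE3 KO, TFEB KO and DKO against WT, without drug and with Torin; filled points have an adjusted p under 0.05. RAB32 lies left of 0 in 5 of the 6 comparisons, and RAB27A lies furthest right in TFEB KO, at 0.86 without drug and 0.60 with Torin.

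In counts, TFE3 KO without drug had 2 members higher than WT and 1 lower, where 3.57% and 5.84% of all genes were. TFEB KO had 1 higher and 3 lower (background 7.46% and 7.18%), and DKO 3 higher and 2 lower (background 5.64% and 7.49%). TFE3 KO against TFEB KO had 5 higher and 1 lower (background 14.3% and 15.6%). With Torin, TFE3 KO had 2 higher and 0 lower (background 3.41% and 6.23%), TFEB KO 1 higher and 3 lower (background 9.39% and 8.56%) and DKO 0 higher and 3 lower (background 5.03% and 7.03%). The comparisons without drug share the 3 WT control libraries, and those with Torin share the 2 WT Torin libraries. Medians over the members without drug were 0.11 for TFE3 KO, -0.08 for TFEB KO and 0.15 for DKO, with members on both sides of 0 in each.

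HBSS and Torin were compared directly in WT. RAB38, RAB32, HPS4 and RAB27A were higher in HBSS and HPS1 and DTNBP1 lower, 4 and 2 of the 10 genes, where 26.1% and 23.1% of all genes passed. RAB27A differed the most (log2 fold change 1.85, SE 0.11, adjusted p = 7.06e-19), followed by DTNBP1 (log2 fold change -0.90, SE 0.12, adjusted p = 4.68e-08). RAB32 was higher in HBSS by 0.63 (SE 0.11, adjusted p = 6.14e-06). HPS4 was higher by 0.43 (SE 0.12, adjusted p = 0.00325), lost without WT Torin replicate 3 (log2 fold change 0.35, adjusted p = 0.0587). RAB38 was higher by 0.71 (SE 0.27, adjusted p = 0.0406), lost without any 1 of WT HBSS replicate 1, WT HBSS replicate 2 and WT Torin replicate 2 (log2 fold change 0.54 to 0.71, adjusted p = 0.114 to 0.222). HPS1 was lower with a log2 difference of -0.50 (SE 0.17, adjusted p = 0.0132), lost without any 1 of WT HBSS replicate 2, WT Torin replicate 2 and WT Torin replicate 3 (log2 fold change -0.51 to -0.29, adjusted p = 0.0509 to 0.273). The RAB38 call was also lost in edgeR (adjusted p = 0.0534) and under all 3 ways of keeping the duplicated column (adjusted p = 0.0574 to 0.0856). With that column kept as WT Torin or under both labels, the calls of HPS4 (adjusted p = 0.0641 and 0.0643) and HPS1 (adjusted p = 0.186 and 0.110) were lost too. MLPH was at 114 and 116 in HBSS and 133 and 110.0 in Torin and did not pass, with a 95% interval of -0.31 to 0.16 for the difference. TRPM1 did not pass either, at -0.22 (95% interval -0.49 to 0.039), so its responses to HBSS and Torin were not shown to differ.

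Across the 9 groups the ratio of the highest to the lowest group mean was largest for RAB27A, at 4.09, then 3.11 for RAB32, 2.92 for MLPH, 2.68 for RAB38, 2.35 for DTNBP1 and 2.06 for HPS4. For TRPM1 it was 1.88, for HPS5 and HPS1 1.60 each, and for MYO5A 1.51. WT HBSS was the highest group for RAB38, RAB32, HPS4 and RAB27A and the lowest for HPS1 and DTNBP1. The order for RAB27A ran from WT HBSS (367 ± 23.7, SD, n = 2) through TFEB KO control (164 ± 14.2, n = 3), TFEB KO Torin (154 ± 5.10) and DKO control (129.6 ± 11.8) to DKO Torin (108 ± 6.40), WT Torin (102 ± 14.9), TFE3 KO control (99.1 ± 6.40), TFE3 KO Torin (96.9 ± 7.17) and WT control (89.8 ± 7.90). Neighbours overlapped in that order except after WT HBSS, TFEB KO Torin and DKO control. For MLPH the order was TFE3 KO Torin (163 ± 10.8), DKO Torin (143 ± 8.15), WT Torin (121 ± 16.2), WT HBSS (115 ± 1.28), TFEB KO Torin (99.7 ± 5.45), DKO control (80.0 ± 11.3), TFE3 KO control (78.6 ± 1.64), TFEB KO control (61.8 ± 5.86) and WT control (55.9 ± 4.20). Here 5 of the 8 pairs of neighbours did not overlap. The 5 highest MLPH groups were the treated ones. No neighbours were apart for MYO5A, 1 pair each for RAB38, HPS1, HPS4 and TRPM1, 2 for HPS5, 3 for DTNBP1 and 5 for RAB32.

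Over the 25 libraries some members moved together. Pearson's r of log2(value + 1) was 0.82 for HPS4 and MLPH, 0.79 for RAB38 and HPS4, 0.78 for MLPH and MYO5A and 0.76 for RAB38 and RAB32. RAB27A stood apart from its partners, with r = 0.011 to MLPH and 0.24 to MYO5A, and ran opposite to DTNBP1 (-0.77). HPS1 and HPS4, which form one complex, had r = 0.44. These libraries share 9 groups, so the values mostly describe differences between groups and carry no p.

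MITF was 719, 778 and 788 in WT control, 1392 and 1454 in WT HBSS and 735 and 732 in WT Torin, so it rose in HBSS (log2 fold change 0.90, SE 0.068, adjusted p = 1.55e-15) and not with Torin (log2 fold change -0.053, SE 0.068, adjusted p = 0.555). Its r was 0.77 to RAB32, 0.62 to RAB27A, 0.46 to RAB38 and 0.42 to MYO5A. To HPS4, TRPM1, HPS5 and MLPH it was 0.28, 0.24, 0.23 and 0.19. The r to HPS1 was -0.31 and to DTNBP1 -0.34. DKO control, the group with the lowest MITF (596, 538 and 532), had the lowest means of RAB32 and HPS5 as well. For RAB32 it overlapped TFEB KO control (means of 87.4 and 91.0). For HPS5 it overlapped DKO Torin (means of 30.4 and 30.5) and did not pass against WT control (log2 fold change -0.28, adjusted p = 0.105). Against WT control, RAB32 and DTNBP1 passed as lower in DKO control, and HPS4, RAB27A and MLPH as higher.

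**Figure D4:**
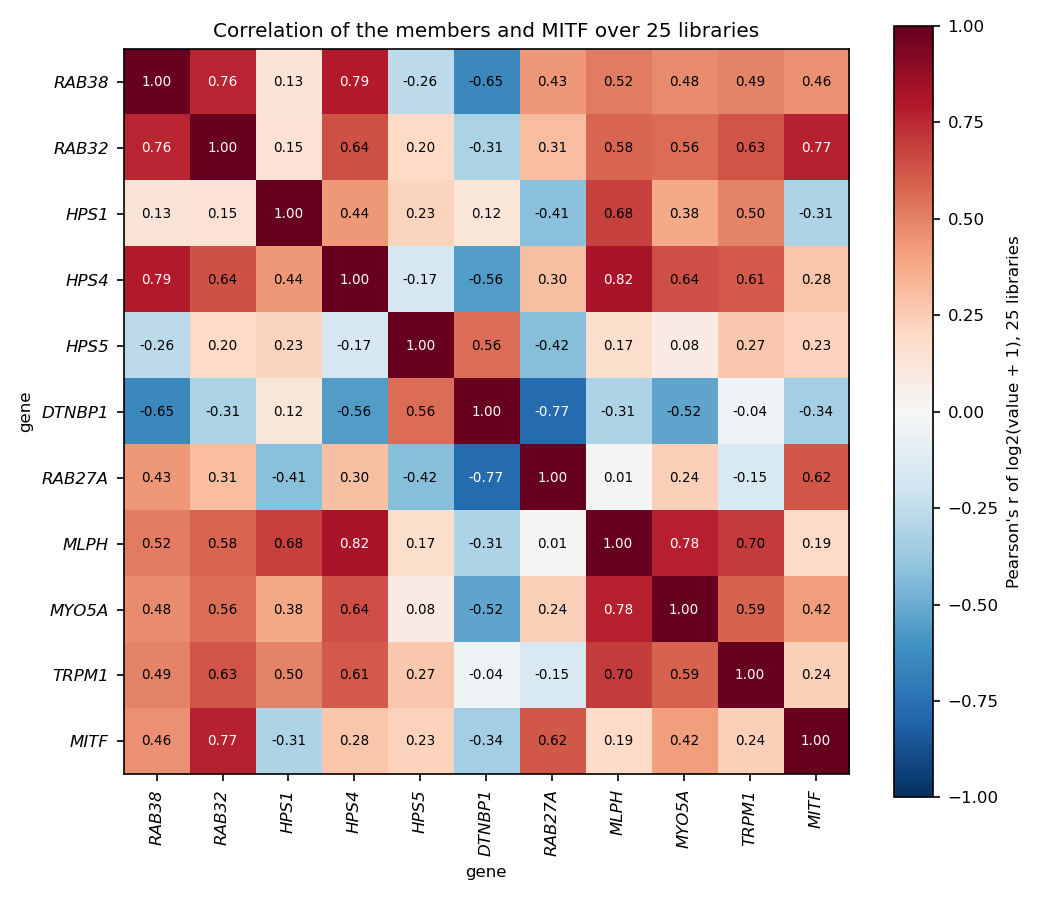
Pearson's r of log2(value + 1) over 25 libraries between each pair of the 10 genes and MITF (both axes list genes; colour from -1, blue, to 1, red; the diagonal is each gene with itself). HPS4 and MLPH share the highest value among the members, 0.82, and DTNBP1 and RAB27A the lowest, -0.77.

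Among 9855 tested genes with a mean of at least 5, those most like each member in r were named, up to 3 for each. For MLPH they were KDM5B (0.976), SCAPER (0.963) and GAS5 (0.957), and for RAB32 LINC00518 (0.933), TYRP1 (0.931), an enzyme of melanin synthesis, and PPP1CC (0.925). RAB27A was nearest to RASSF8 (0.924), ZRANB1 (0.917) and ZBTB43 (0.905), and MYO5A to MTR (0.923), CCDC88A (0.903) and CENPF (0.894). HPS4 was near to HEBP1 (0.915) and EIF4B (0.910), and RAB38 to RSL24D1 (0.914), FAM131A (0.909) and HAS2 (0.898). DTNBP1 was nearest to NEDD9 (0.889), TMEM177 (0.883) and PPP1R10 (0.878), and HPS1 to TMEM198 (0.855), LINC00920 (0.837) and TUBGCP6 (0.825). TRPM1 was near to RPL5 (0.841) and RPL10 (0.820), and HPS5 to DNAJC1 (0.806), TNIK (0.706) and GMDS (0.703). Each r is over the same 25 libraries and is the top of many, so none is evidence of shared control.

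Other genes of melanosome formation and transport were listed by their known role, 57 in all, with earlier results of these data known. BLOC1S5, RAB27B and MYRIP had no row, and the other 54 were tested. In HBSS 16 rose and 9 fell, which is 29.6% and 16.7% beside 23.6% and 24.7% of all genes, with a median log2 fold change of 0.076. RAB17, a GTPase of recycling endosomes, rose by 1.68 (adjusted p = 9.23e-14) and RAB9A, which acts in cargo delivery to melanosomes, by 1.22 (adjusted p = 2.67e-05). HPS6, which joins HPS5 in BLOC-2, was at a mean of 29.4 in WT control and 6.37 in WT HBSS (log2 fold change -2.05, adjusted p = 1.13e-15). SNAPIN, which joins DTNBP1 in BLOC-1, fell too (-0.84 on the log2 scale, adjusted p = 9.25e-06). Further BLOC-1 subunits of the list, such as BLOC1S1 and BLOC1S2, are not given here for HBSS. BLOC1S3 of BLOC-1 rose by 0.73 (adjusted p = 0.00337) and BLOC1S6 by 0.28 (adjusted p = 0.0126), and HPS3 of BLOC-2 did not pass (0.18). BLOC1S3, BLOC1S6 and HPS3 were named after their values were seen.

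With Torin in WT 10 of the 54 rose and 11 fell, with a median of 0.041. These shares, 18.5% and 20.4%, lie near the 20.5% and 23.4% of all genes. LYST, which shapes lysosome-related organelles and is lost in Chediak-Higashi syndrome, rose by 1.12 (adjusted p = 2.67e-08) and RAB17 by 0.96 (adjusted p = 3.80e-07). The lowest were STX3, a syntaxin of membrane fusion, at -1.01 (adjusted p = 1.85e-11), and VAC14, of the complex that makes the endosomal lipid PI(3,5)P2, at -0.74 (adjusted p = 0.00161). Both were lost with the duplicated column kept as WT Torin. Against WT without drug, 1 was higher and 1 lower in TFE3 KO (1.85% each, background 3.57% and 5.84%). In TFEB KO 3 were higher and 2 lower (5.56% and 3.70%, background 7.46% and 7.18%), and in DKO 2 and 5 (3.70% and 9.26%, background 5.64% and 7.49%). All but the share lower in DKO were under the background.

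In TFE3 KO these were BLOC1S1, of BLOC-1, and STX3. BLOC1S1 was higher by 0.40 (adjusted p = 0.0321), lost without any 1 of WT control replicate 2, WT control replicate 3, TFE3 KO control replicate 2 and TFE3 KO control replicate 3 (log2 fold change 0.26 to 0.43, adjusted p = 0.0591 to 0.290). STX3 was lower with a log2 difference of -0.29 (SE 0.091, adjusted p = 0.0294), lost without any 1 of WT control replicate 1, WT control replicate 2, WT control replicate 3, TFE3 KO control replicate 2 and TFE3 KO control replicate 3 (log2 fold change -0.32 to -0.25, adjusted p = 0.0506 to 0.164). Both therefore turned on single libraries, as did most of the list genes named for the other knockouts.

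In TFEB KO the genes named were 2 subunits of the sorting adaptor AP-1, BLOC1S2 of BLOC-1, and KIF13A, the motor that carries AP-1 cargo. AP1G1 was higher by 0.36 (adjusted p = 0.0370), lost without any 1 of WT control replicate 1, TFEB KO control replicate 1 and TFEB KO control replicate 2 (log2 fold change 0.23 to 0.36, adjusted p = 0.0886 to 0.269). BLOC1S2 was higher by 0.31 (adjusted p = 0.0264), lost without any 1 of WT control replicate 1, WT control replicate 2, TFEB KO control replicate 1 and TFEB KO control replicate 2 (log2 fold change 0.26 to 0.33, adjusted p = 0.0534 to 0.130). The AP-1 subunits went opposite ways, since AP1S1 had -0.44 (adjusted p = 0.0445), lost without any 1 of WT control replicate 1, WT control replicate 2, TFEB KO control replicate 1 and TFEB KO control replicate 2 (log2 fold change -0.49 to -0.34, adjusted p = 0.0602 to 0.213). All 3 were also lost when only the groups compared were fitted. KIF13A had -0.38 (adjusted p = 0.00576), a call kept under every alternative.

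In DKO the genes named were RILP, which links RAB7 to dynein, DYNC1I2, a dynein subunit, FIG4, which acts with VAC14, and again KIF13A. RILP was higher by 0.68 (adjusted p = 0.0255), lost without any 1 of WT control replicate 1 and DKO control replicate 3 (log2 fold change 0.35 to 0.58, adjusted p = 0.108 to 0.325). DYNC1I2 was higher by 0.24 (adjusted p = 0.0272), lost without any 1 of WT control replicate 1, WT control replicate 2, DKO control replicate 1 and DKO control replicate 2 (log2 fold change 0.18 to 0.25, adjusted p = 0.0552 to 0.189). FIG4 had -0.72 (adjusted p = 0.0243), lost without any 1 of WT control replicate 1, WT control replicate 3 and DKO control replicate 1 (log2 fold change -0.65 to -0.44, adjusted p = 0.0855 to 0.265). RILP, DYNC1I2 and FIG4 were lost as well when only the groups compared were fitted, and KIF13A at -0.60 (adjusted p = 1.18e-05) was kept. KIF13A was lower than WT in TFEB KO and DKO and did not pass in TFE3 KO. With 1 clone per genotype this cannot be assigned to a gene.

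**Figure D5:**
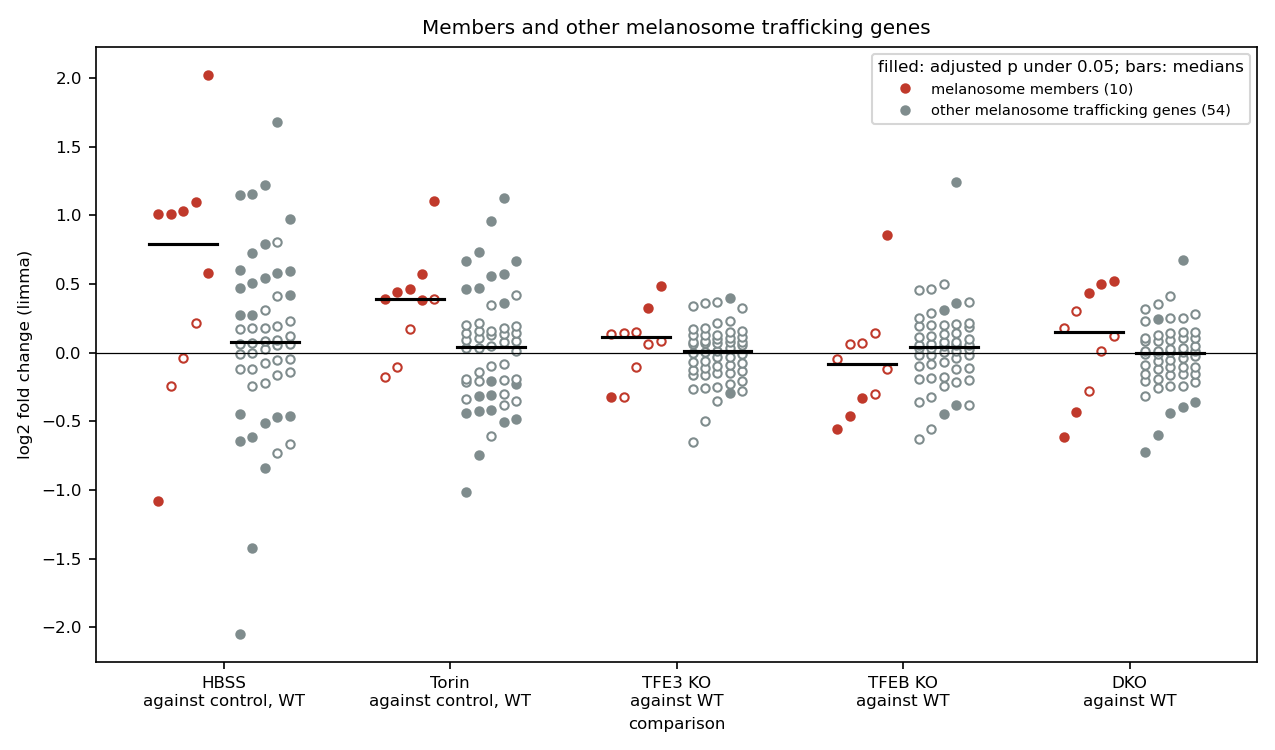
Log2 fold change (y axis, limma) of the 10 members (red) and of 54 other melanosome trafficking genes (grey) in 5 comparisons (x axis); filled points have an adjusted p under 0.05 and black bars are medians. In HBSS the median is 0.79 for the members and 0.076 for the other genes, and the lowest grey point is HPS6 at -2.05.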

How the data were processed

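RNA from 3′ ends (QuantSeq Forward) of 501mel cells was deposited by the authors as 1 table of normalised values per gene symbol. Per the labels and the study's methods, trimming used trim_galore and cutadapt 2.10, and reads were checked with FastQC 0.11.9, mapped to hg38 with STAR 2.7.8a and normalised with edgeR; the counter, its strand setting, the scaling and the filter are not given in the sources used here. The deposited values are a signal on the CPM scale, and in each column 100% of them were whole multiples of the value of 1 read (tolerance 0.01), so whole reads were recovered by division (4147050 to 6526392 per library).

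The members and lists were chosen with earlier results of these data known. Genes needed a value of 1 or more in 3 or more libraries (13052 tested, 471 left out). log2(value + 1) was fitted with 1 mean per group over 25 libraries in limma 3.58.1 (lmFit, contrasts.fit, eBayes with trend and robust, R 4.3.3), for 16 comparisons, 2-sided, with Benjamini-Hochberg adjustment within each. The fit was tested on simulated data. Named were the members, MITF, TFEB and TFE3, the 2 highest and 2 lowest passing list genes with a mean of at least 5 in each of 5 comparisons, and the 3 genes most like each member by r (2 of these genes are not reported here); PYROXD2, ASPHD2, CD68 and COL1A1 were named for other reasons given beside them. The alternatives tried were no filter, a minimum of 5, a pseudocount of 0.1, median-of-ratios rescaling, the replicate number as a block, only the groups compared, the duplicated column kept, edgeR 4.0.16 quasi-likelihood and DESeq2 1.42.0 on the recovered reads, and leaving out each library. Where this left 1 library of a group, that library was taken to vary like the other groups. Gene coordinates are GENCODE 44 on hg38, and promoter windows are RefSeq on hg38.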

Additional observations from a re-analysis of the deposited data

Results flagged for a closer look

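The column labelled both WT HBSS replicate 3 and WT Torin replicate 1 entered no comparison. In it RAB38 was at 180.3, RAB32 at 263, HPS4 at 263, RAB27A at 397, MLPH at 119 and MYO5A at 187, each above all 3 WT control libraries. MITF at 1500, TFEB at 23.9 and TFE3 at 27.1 were above them as well. In WT HBSS, RAB27A was at 351 and 384, MITF at 1392 and 1454 and TFEB at 30.4 and 28.0, and in WT Torin at 112 and 91.3, 735 and 732 and 5.63 and 4.27. For RAB27A, MITF and TFEB the column thus lay nearer to WT HBSS than to WT Torin.

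The Torin response of MITF was higher in TFE3 KO than in WT by 0.38 (limma interaction, adjusted p = 0.0235), with 682, 677 and 688 in TFE3 KO control and 843, 853 and 875 in TFE3 KO Torin. That MITF call was lost in edgeR (adjusted p = 0.0509), with the duplicated column kept as WT Torin (log2 difference 0.038, adjusted p = 0.962) and without any 1 of WT control replicate 2, WT control replicate 3, WT Torin replicate 2, WT Torin replicate 3, TFE3 KO control replicate 1, TFE3 KO control replicate 2 and TFE3 KO Torin replicate 3 (log2 fold change 0.36 to 0.38, adjusted p = 0.0502 to 0.115). That of TFE3 was higher in TFE3 KO than in WT by 1.01 (adjusted p = 0.0404), with means of 6.30 ± 1.27 and 10.8 ± 2.80 (SD, n = 3) in the same groups. That TFE3 call was lost with the replicate block (adjusted p = 0.0534), with only the groups compared (adjusted p = 0.0778), with the duplicated column kept as WT Torin or under both labels (adjusted p = 0.188 and 0.165) and without any 1 of WT control replicate 1, WT control replicate 2, WT control replicate 3, WT Torin replicate 2, WT Torin replicate 3, TFE3 KO control replicate 2, TFE3 KO control replicate 3 and TFE3 KO Torin replicate 1 (log2 fold change 0.82 to 1.11, adjusted p = 0.0640 to 0.231).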

How the results depend on the processing

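The shares of all genes that passed are given above for each comparison, and how many of those calls were kept was not counted. The counts below therefore describe the members only. Of the 160 pairs of a member and a comparison, 65 passed. 40 of them kept direction and call under every alternative run, 14 were lost only when a library was left out and 11 under another alternative, while 10 others passed under some alternative. With each library left out in turn, the number of passing members was 7 to 8 for HBSS, 4 to 6 for Torin in WT, 6 to 9 in TFE3 KO, 6 to 7 in TFEB KO and 4 to 5 in DKO. Against WT without drug it was 1 to 3 for TFE3 KO, 3 to 4 for TFEB KO and 5 for DKO, and for TFE3 KO against TFEB KO 2 to 6, the 2 being without TFEB KO control replicate 1. With Torin it was 0 to 2 for TFE3 KO, 3 to 5 for TFEB KO and 0 to 3 for DKO against WT, and it was 4 to 5 for HBSS against Torin. With the duplicated column kept as WT Torin, or under both labels, the number fell to 1 for TFEB KO against WT and 1 for DKO against WT, both with Torin, and to 3 for HBSS against Torin. In both settings RAB27A in TFEB KO against WT with Torin reversed to -0.058 and MITF in TFE3 KO against WT with Torin to -0.12. The DTNBP1 and RAB27A calls in TFEB KO against WT with Torin were lost only there. Keeping the column as WT Torin changed the passing number of all genes too. It went from 2343 to 1489 for TFEB KO and from 1574 to 2599 for DKO, both with Torin. For HBSS against Torin it went from 6416 to 2694. For TFE3 KO against WT without drug, 1228 of all genes passed, and 821 to 1028 with a library left out. With the column left out, WT Torin has 2 libraries, so comparisons with it are the least certain. The replicate numbers did not pair the libraries: deviations from group means correlated at -0.19 to 0.16 over 92 pairs with the same number and at -0.15 to 0.25 over the others. With the replicate block, the count was 2 in place of 3 for DKO against WT with Torin (TRPM1 lost, -0.33, adjusted p = 0.0628), and no other member's call changed. edgeR changed 4 and DESeq2 2 of the 160 results, the pseudocount and both filter settings 0 and median-of-ratios rescaling 1. All genes' median shifted by under 0.1 under each scaling. The lowest member count was 91 reads, so depth limits HPS1 and HPS5 most.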
